A study of Mus musculus with 48 samples.

Results

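The genes described here are the feeding peptides of the arcuate nucleus and the receptors through which they and leptin act: Agrp, Npy, Pomc, Cartpt, Mc3r, Mc4r, Lepr and Npy1r. Every array probe whose RefSeq accession belongs to one of these genes was taken, which gave 11 probes for 8 genes among 41174 probes and 18883 named genes. The arcuate nucleus, at the base of the hypothalamus, holds neurons with opposed effects on food intake. One population makes agouti-related peptide and neuropeptide Y, which promote feeding. The other makes proopiomelanocortin, the precursor of the melanocortin peptides, together with cocaine- and amphetamine-regulated transcript, and it restrains feeding. Melanocortins activate the receptors Mc3r and Mc4r, agouti-related peptide blocks them, and leptin from fat reaches both populations through its receptor.

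RNA from the hypothalamus and the frontal cortex of 24 adult C57BL/6 mice was measured on 48 one-color arrays, all after 12 h of sleep deprivation (SD), with 8 mice per genotype. In Per3 5/5 mice (Boxhill in the labels) and Per3 4/4 mice (Coach) the exon of Per3 that corresponds to the human repeat exon had been replaced by the human exon with 5 or 4 repeats on both alleles, and the third group was wild type (WT). Per the study's methods, knock-in and WT lines came from the same conditional transgenic mice by crossing to a ubiquitous Cre driver, Cre was then bred out, and all mice had free access to food. No array came from a mouse without SD, the sex of these mice was not given, and levels refer to whole tissue blocks rather than to the arcuate nucleus.

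A level below is log2 of the probe's processed signal minus log2 of the 75th percentile of its array, so 0 is the brightness of the probe at that percentile and 1 unit is a 2-fold step. Levels of different probes cannot be set against each other. In whole tissue, fewer cells of a type and less RNA per cell cannot be told apart. The blocks bore out their labels: the summed level of 16 markers of other hypothalamic nuclei was 242.7 to 461.9 in hypothalamus against 4.88 to 7.85 for the 12 detected in cortex, and 7 cortex markers summed to 12.6 to 24.4 in cortex against 0.742 to 1.79. Arrays were scanned on 3 days on which the genotypes were spread unequally, and the 75th percentile ran from 307 to 1884 in hypothalamus and from 324 to 1463 in cortex. One day held no WT array and another no Per3 5/5 array. The median 75th percentile in Per3 5/5, Per3 4/4 and WT mice was 1045, 924 and 1522 in hypothalamus and 894, 753 and 1300 in cortex. Brightness and scan day were thus partly tied to genotype, which matters most for dim probes. Some arrays stood apart from the rest of their genotype, Per3 5/5 replicate 7 and WT replicates 3 and 8 in the hypothalamus and Per3 5/5 replicates 4 and 5 and WT replicates 3 and 7 in the cortex, and they are described with the genes they touch.

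RefSeq held a promoter for 6 of the 8 genes. The 250 bases before the start site are shown for the 3 abundant peptides whose levels the results turn on (RefSeq, GRCm38.p6, read 5′ to 3′ on the gene's strand), with the motifs searched in capitals.
Npy, chr6:49822460-49822709, plus strand: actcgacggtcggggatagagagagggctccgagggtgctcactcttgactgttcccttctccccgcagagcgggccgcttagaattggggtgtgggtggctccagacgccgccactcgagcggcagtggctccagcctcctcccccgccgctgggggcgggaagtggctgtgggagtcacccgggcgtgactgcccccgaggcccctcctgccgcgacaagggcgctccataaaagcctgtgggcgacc
Pomc, chr12:3954695-3954944, plus strand: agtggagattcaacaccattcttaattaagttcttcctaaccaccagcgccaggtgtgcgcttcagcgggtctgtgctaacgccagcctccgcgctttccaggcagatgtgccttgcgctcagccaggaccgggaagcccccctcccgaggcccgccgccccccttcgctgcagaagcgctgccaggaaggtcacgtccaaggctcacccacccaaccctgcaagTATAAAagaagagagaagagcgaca
Cartpt, chr13:99900684-99900933, minus strand: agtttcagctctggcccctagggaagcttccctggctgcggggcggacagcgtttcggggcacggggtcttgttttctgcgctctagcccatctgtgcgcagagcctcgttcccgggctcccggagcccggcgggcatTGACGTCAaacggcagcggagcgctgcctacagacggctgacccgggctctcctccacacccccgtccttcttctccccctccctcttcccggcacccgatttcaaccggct
The search covered both strands for the TATA box TATAAA, the E-box CACGTG bound by circadian clock factors, and the cyclic AMP response element TGACGTCA. Pomc held TATAAA, present in 12.4% of 32851 promoters of this length. Cartpt held TGACGTCA, present in 1.55%. CACGTG, present in 6.02%, was in none of the 7 member promoters (Lepr has 2), and Npy held none of the 3 motifs. These matches describe the letters of the window.

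The tissue comparison asked where each gene was expressed. Agrp, Pomc, Cartpt, the receptor Lepr and 1 probe of Mc3r were higher in the hypothalamus, whereas Npy, its receptor Npy1r and the other Mc3r probe were higher in the cortex. In the limma fit over 48 arrays, 9 of the 11 probes passed an adjusted p of 0.05, 6 higher and 3 lower in the hypothalamus. Of all 31228 probes tested 67.8% passed (35.4% higher, 32.4% lower), so a count of this kind is not particular to the members.

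Agrp, the melanocortin receptor antagonist, had the largest difference among the 11 probes. Its level was 6.06 log2 units higher in the hypothalamus (SE 0.16, 66.9-fold, adjusted p = 1.53e-33), and it was higher in 24 of 24 mice, by 2.31 to 6.96 units within a mouse. Its cortex level, from −5.70 to −4.60 over the 3 genotypes, was a processed signal of only 8.71 to 38.65, although well above background on all 24 arrays. Pomc was 4.51 units higher (SE 0.20, 22.9-fold, adjusted p = 6.50e-25), again in 24 of 24 mice. Cartpt was 3.80 units higher by both of its probes (SE 0.23, 13.9-fold, adjusted p = 1.54e-19 for A_51_P416152). It was higher in 23 of 24 mice, and in the exception, WT mouse 3, it was 0.33 and 0.08 units lower in the hypothalamus than in the cortex.

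Npy went the other way. It is also made by inhibitory interneurons of the cortex, and its level was 1.48 units lower in the hypothalamus (SE 0.10, 2.79-fold, adjusted p = 3.44e-17), with differences within a mouse of −3.08 to −0.87 in 24 mice. Agrp and Npy, made by the same arcuate neurons, thus lay on opposite sides of the tissue comparison. Npy1r, a receptor for neuropeptide Y, was also lower in the hypothalamus, by 0.48 units (SE 0.10, 1.39-fold, adjusted p = 2.18e-05), and 1 of 24 mice had the higher level in the hypothalamus.

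Among the other receptors, Lepr was 1.20 units higher in the hypothalamus by probe A_51_P396045 (SE 0.08, 2.30-fold, adjusted p = 1.50e-17), in 24 of 24 mice. The second Lepr probe, A_52_P247900, was near background in both tissues and differed by 0.06 (SE 0.24, adjusted p = 0.831). The 2 probes of Mc3r disagreed in direction. A_51_P467278 was 2.97 units higher in the hypothalamus (SE 0.21, adjusted p = 1.84e-17, 24 of 24 mice), and because it was not well above background on any cortex array of Per3 4/4 and WT mice, the hypothalamus level there is given as at least 5.05-fold and at least 6.10-fold higher. A_51_P467284 was 0.32 units lower (SE 0.14, adjusted p = 0.0328), with 2 of 24 mice higher in the hypothalamus. That call was lost with the normexp background correction (−0.26, adjusted p = 0.10). It was also lost without both arrays of any 1 of 7 mice (adjusted p = 0.0517 to 0.0652). These were Per3 5/5 replicate 3, Per3 4/4 replicates 5 and 6 and WT replicates 1, 2, 3 and 4. Without both arrays of WT replicate 8 the difference was −0.44 (adjusted p = 7.18e-07). Mc4r, the melanocortin receptor most closely tied to body weight, differed by 0.19 (SE 0.11, adjusted p = 0.110) and was higher in the hypothalamus of 15 of 24 mice. With the mouse as a block the Mc4r adjusted p was 0.0442. The normexp background correction, which adds an offset of 50 and so narrows differences between dim signals, kept the direction and call of Agrp (4.06), Lepr A_51_P396045 (0.23) and Mc3r A_51_P467278 (0.57) at much smaller sizes. The bounds for Mc3r hold for the processed signal and not on that scale. Tissue and array position were tied on every slide and cannot be told apart.

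**Figure D1:**
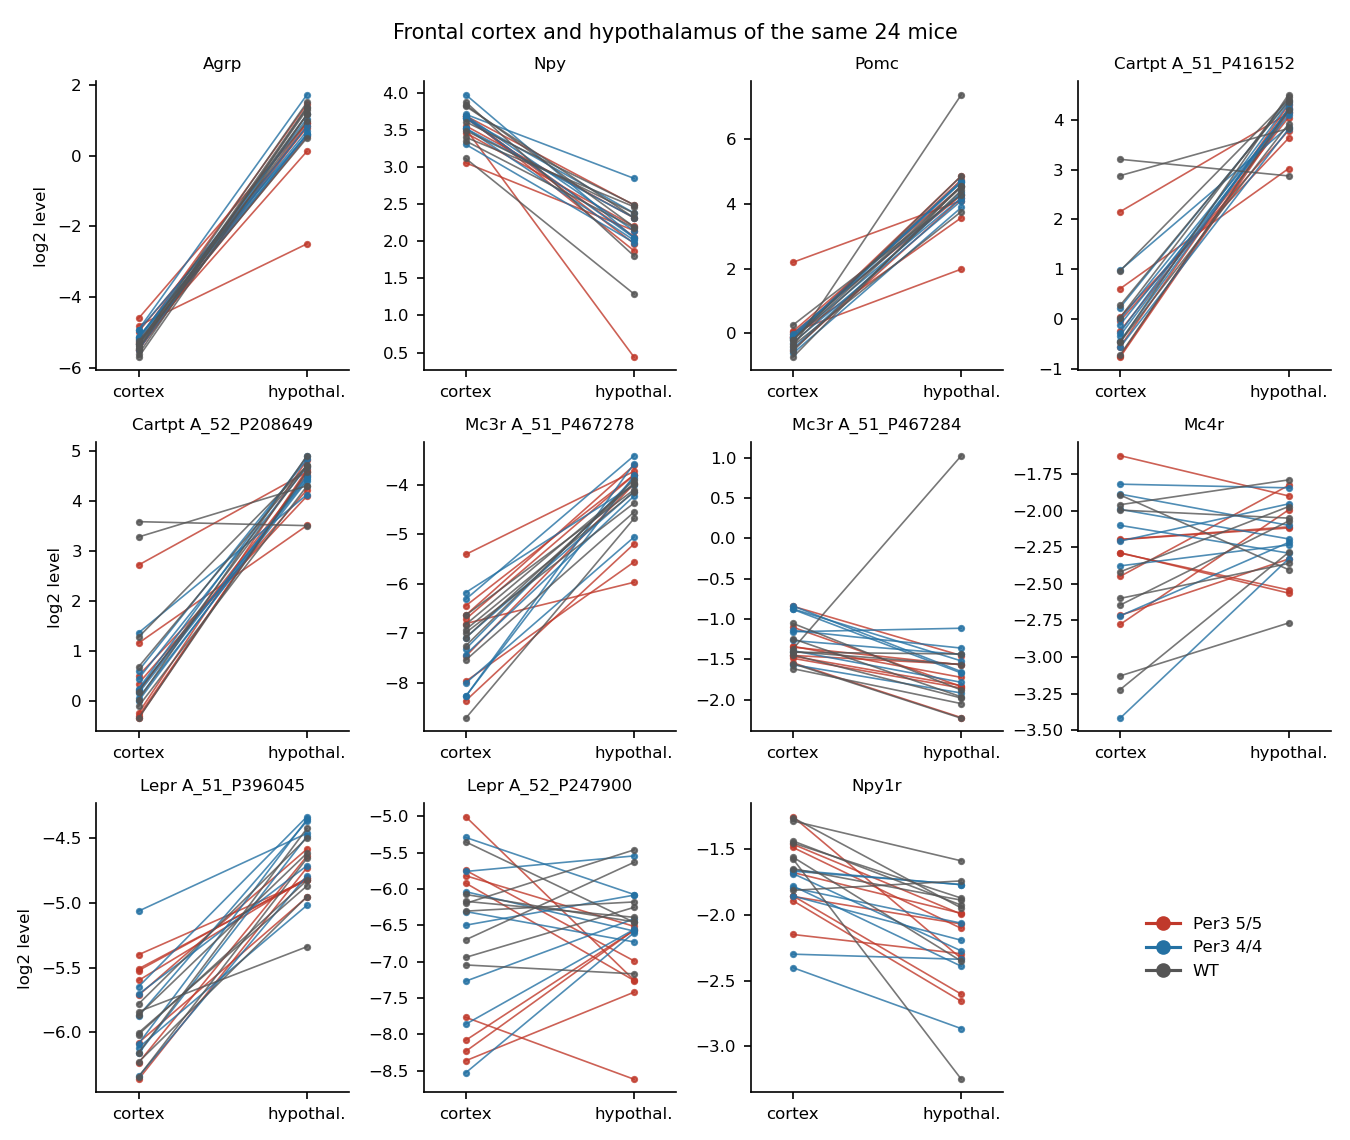
Levels of the member probes (log2 relative to the array's 75th percentile, vertical axis) in cortex and hypothalamus, with each line joining the 2 tissues of 1 mouse and colors marking the 3 genotypes. Agrp and Pomc rose from cortex to hypothalamus in 24 of 24 mice and Npy fell in 24 of 24, whereas the Cartpt line of WT mouse 3 ran nearly level.

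In the hypothalamus the comparison of genotypes asked whether the Per3 repeat changed these genes after SD. Levels of the peptides and receptors overlapped among all genotypes for each of the 11 probes. In the limma fit, 0 of 11 probes passed between the 2 knock-in groups (0% of all 30735 probes tested), 1 passed between Per3 5/5 and WT mice (18.8%) and 0 passed between Per3 4/4 and WT mice (15.1%). At an unadjusted p under 0.05 the member counts were 1, 2 and 0 of 11, against 16.2, 35 and 33.1% of all probes. With scan day as a block no member passed, against 0, 2.1 and 0.745%. Groups without overlap were found in 0.026, 2.66 and 1.86% of all probes and in no member. The comparisons with WT share the WT arrays, and the 1 probe called entered the test through its WT arrays alone.

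Of the peptides that promote feeding, Agrp lay at −2.49, 0.81 and 1.45 (lowest, median and highest) in Per3 5/5 mice, at 0.57, 0.77 and 1.72 in Per3 4/4 mice and at 0.50, 1.23 and 1.50 in WT mice. The lowest value was that of Per3 5/5 replicate 7, and the next lowest hypothalamus value was 0.12. Agrp was 0.78 lower in Per3 5/5 than in WT mice (SE 0.36, 95% confidence interval −1.53 to −0.03), which did not pass across all probes (adjusted p = 0.125). Without replicate 7 the difference was −0.37 (SE 0.19, adjusted p = 0.164), a smaller size with a smaller error. Blocking on scan day gave −1.01 (adjusted p = 0.159), and on the scan day that held both groups, replicate 7 included, −1.17 (adjusted p = 0.432). Against Per3 4/4 mice the Per3 5/5 difference in Agrp was −0.52 (SE 0.36, adjusted p = 0.457), and −0.11 without replicate 7. Between Per3 4/4 and WT mice it was −0.26 (SE 0.36, adjusted p = 0.636). Both of these groups were scanned on 2 of the days, and within them the difference was −0.59 (SE 0.15, adjusted p = 0.550, 3 and 5 arrays) and 0.06 (SE 1.18, adjusted p = 0.989, 1 and 3 arrays).

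Npy, the other product of the same neurons, lay at 0.44, 2.10 and 2.49 in Per3 5/5 mice, at 1.98, 2.09 and 2.85 in Per3 4/4 mice and at 1.29, 2.26 and 2.49 in WT mice. The groups overlapped apart from single arrays. These were Per3 5/5 replicate 7, again the lowest, WT replicate 3 (1.29) and, at the top, Per3 4/4 replicate 1 (2.85). The Per3 5/5 difference from WT was −0.20 (SE 0.22, adjusted p = 0.537), and 0.01 without replicate 7. Over all arrays left out 1 at a time it ran from −0.33 to 0.01.

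Pomc lay at 1.98, 4.22 and 4.86 in Per3 5/5 mice, at 3.89, 4.34 and 4.70 in Per3 4/4 mice and at 3.76, 4.53 and 7.36 in WT mice. Its extremes were single arrays, Per3 5/5 replicate 7 at the bottom and WT replicate 8 at the top, and the other values of the 3 groups overlapped. The difference between Per3 5/5 and WT mice was −0.76 (SE 0.40, adjusted p = 0.174), −0.47 without Per3 5/5 replicate 7 and −0.39 without WT replicate 8. It was −1.30 with scan day as a block (adjusted p = 0.111) and −1.73 on the shared scan day (adjusted p = 0.340), the day that held both of these extreme arrays. Without the 3 arrays that stood apart (these 2 and WT replicate 3, chosen after their values were seen) it was −0.21 (SE 0.18, adjusted p = 0.444).

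Cartpt, the other transcript of the Pomc neurons, lay at 3.02, 4.09 and 4.30 in Per3 5/5 mice, at 3.81, 4.19 and 4.39 in Per3 4/4 mice and at 2.87, 4.27 and 4.50 in WT mice by probe A_51_P416152. Its lowest array was WT replicate 3, followed by Per3 5/5 replicate 7. The second probe, A_52_P208649, ranged from 3.50 to 4.90 and followed the first with a correlation of 0.97 over the 24 arrays. Differences between genotypes were −0.22 to 0.08 over both probes, and none passed. With 1 array left out at a time, Per3 5/5 against WT gave −0.33 to −0.03 by A_51_P416152 (smallest adjusted p = 0.158). By A_52_P208649 it gave −0.23 to 0.03.

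**Figure D2:**
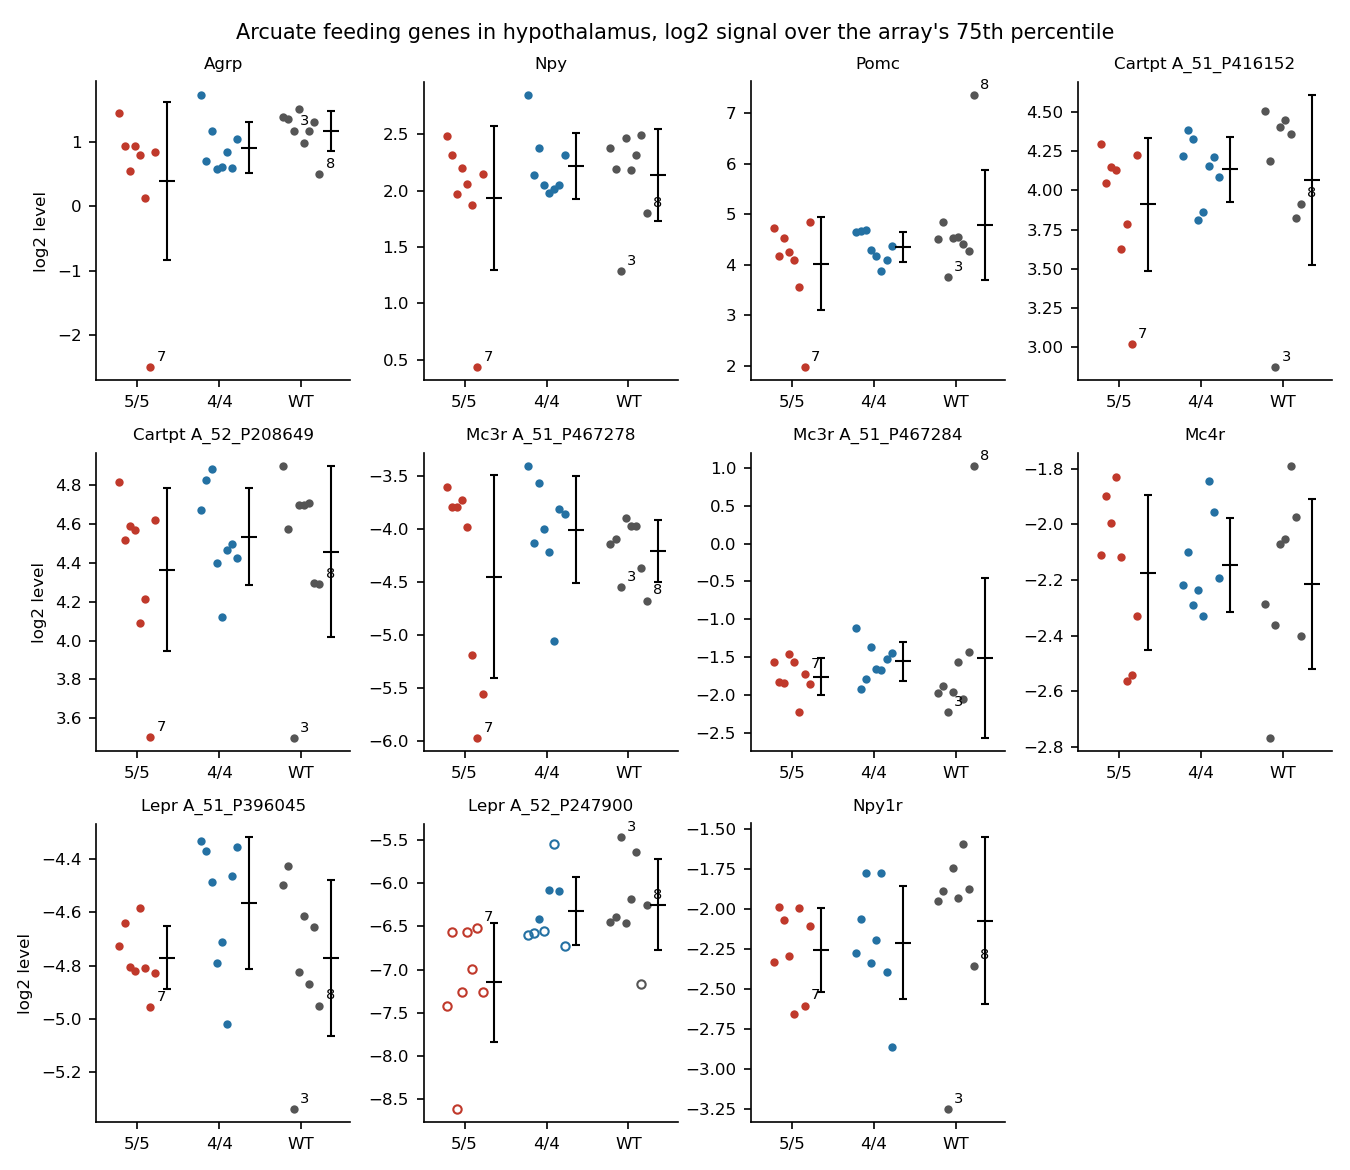
Hypothalamus levels of the 11 member probes (log2 relative to the array's 75th percentile, vertical axes) by genotype, with a point for each of the 8 arrays, open where the probe was not well above background, and bars for the mean ± SD. The numbered arrays are Per3 5/5 replicate 7, lowest in Agrp (−2.49), Npy (0.44) and Pomc (1.98), and WT replicates 3 and 8, of which the latter was highest in Pomc (7.36).

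Among the receptors, Mc4r lay between −2.77 and −1.79 over all 24 hypothalamus arrays, and its genotype differences were −0.03 to 0.07 (SE 0.13). Npy1r ranged from −3.25 to −1.59, with differences of −0.18 to −0.05 (SE 0.19). Without WT replicate 3 its differences from WT were −0.35 (adjusted p = 0.101) for Per3 5/5 and −0.30 (adjusted p = 0.162) for Per3 4/4 mice. For Mc3r, probe A_51_P467284 ranged from −2.23 to 1.03, and the highest value belonged to WT replicate 8 while every other array was at or below −1.11. Probe A_51_P467278 was at −5.19, −5.97 and −5.56 in Per3 5/5 replicates 6, 7 and 8 and at −5.06 in Per3 4/4 replicate 6, below the other 20 arrays. Neither Mc3r probe passed in any genotype comparison.

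The leptin receptor gave different answers by probe. A_51_P396045, printed 10 times on each array, lay at −4.95, −4.81 and −4.58 in Per3 5/5 mice, at −5.02, −4.47 and −4.33 in Per3 4/4 mice and at −5.34, −4.74 and −4.42 in WT mice. The Per3 5/5 difference from WT was 0.00 with a 95% confidence interval of −0.24 to 0.24. A_52_P247900 was much dimmer and was well above background on 0, 3 and 7 of 8 arrays of Per3 5/5, Per3 4/4 and WT mice. Its levels were −8.62, −7.12 and −6.51, then −6.73, −6.48 and −5.55, then −7.17, −6.32 and −5.46. Of the Per3 5/5 arrays 4 lay below all WT arrays, and the groups overlapped. This probe gave the single call in the hypothalamus, −0.90 in Per3 5/5 against WT mice (SE 0.26, adjusted p = 0.0214). It entered the test (well above background on 6 or more of 8 arrays of some genotype) through WT mice alone, the group where it was higher. The call is therefore not read as evidence of a genotype difference. Because it was not well above background in any Per3 5/5 array, the processed signals give WT mice, measured on 7 of 8 arrays, at least 1.36-fold over Per3 5/5 mice, a bound that the normexp background correction did not keep. The call was lost with scan day as a block (−0.53, adjusted p = 0.300), on the shared scan day alone (−0.48, adjusted p = 0.480) and under the normexp background, where the difference was 0.01 (adjusted p = 0.986).

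In the cortex, 9 of the 11 probes could be tested, Mc3r A_51_P467278 and Lepr A_52_P247900 being too dim. In the limma fit, 0 of 9 passed between the 2 knock-in groups (0% of all 29715 probes tested), 0 passed between Per3 5/5 and WT mice (12.4%) and 1 passed between Per3 4/4 and WT mice (22.5%). At an unadjusted p under 0.05 the member counts were 0, 1 and 3 of 9, against 15.7, 30.7 and 36.6% of all probes. With scan day as a block no member passed, against 0, 0.986 and 7.72%. All members overlapped between genotypes, whereas 0.037, 1.14 and 6.7% of all probes did not.

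The cortex call was Npy1r. It lay at −2.15, −1.77 and −1.26 in Per3 5/5 mice, at −2.40, −1.79 and −1.66 in Per3 4/4 mice and at −1.82, −1.51 and −1.26 in WT mice. Of the Per3 4/4 arrays 3 lay below all WT arrays and the others overlapped them. Npy1r fell by 0.39 in Per3 4/4 against WT mice (SE 0.13, 95% confidence interval −0.65 to −0.12, 1.31-fold, adjusted p = 0.0329). The Per3 5/5 difference from WT was −0.20 (SE 0.13, adjusted p = 0.290), and the knock-in groups differed by 0.19 (SE 0.13, adjusted p = 0.452). Blocking on scan day gave −0.39 for Per3 4/4 against WT, without a call (adjusted p = 0.106), and the difference was −0.22 (adjusted p = 0.361, 3 and 5 arrays) and −0.97 (adjusted p = 0.510, 1 and 3 arrays) within the 2 scan days that held both groups. With the normexp background correction it was −0.08 (adjusted p = 0.605), and with slide as a fixed block −0.77 (adjusted p = 0.122). The call was also lost when any 1 of 6 arrays was left out (Per3 4/4 replicates 4 and 8, WT replicates 1, 5, 6 and 7; adjusted p up to 0.0727).

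Npy, the ligand, gave no call in the cortex. Its levels were 3.06, 3.61 and 3.69 in Per3 5/5 mice, 3.31, 3.66 and 3.98 in Per3 4/4 mice and 3.12, 3.55 and 3.88 in WT mice, with differences of −0.09 to 0.07 (SE 0.11). Agrp was at −5.49, −5.23 and −4.60, then −5.49, −5.14 and −4.92, then −5.70, −5.41 and −5.24, so that 4 Per3 5/5 and 6 Per3 4/4 arrays lay above all WT arrays. The Agrp differences from WT, 0.29 and 0.27 (SE 0.12), did not pass (adjusted p = 0.0917 and 0.0943) and were of opposite sign to those in the hypothalamus. The test of that difference between tissues gave −1.07 for Per3 5/5 against WT (SE 0.39, adjusted p = 0.9998), and no member passed in any of the 3 tests of genotype by tissue, where 0, 0.016 and 0.0032% of all probes passed. At an unadjusted p under 0.05, 0, 2 and 0 of 11 member probes did so, against 1.65, 3.19 and 2.37% of all probes. The 2 were Agrp (−1.07) and Pomc (−1.26), the genes already known to be low in the hypothalamus of Per3 5/5 replicate 7. They are therefore not read as an excess among the members. Leaving out 1 mouse brought these differences to as little as −0.61 and −0.88.

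**Figure D3:**
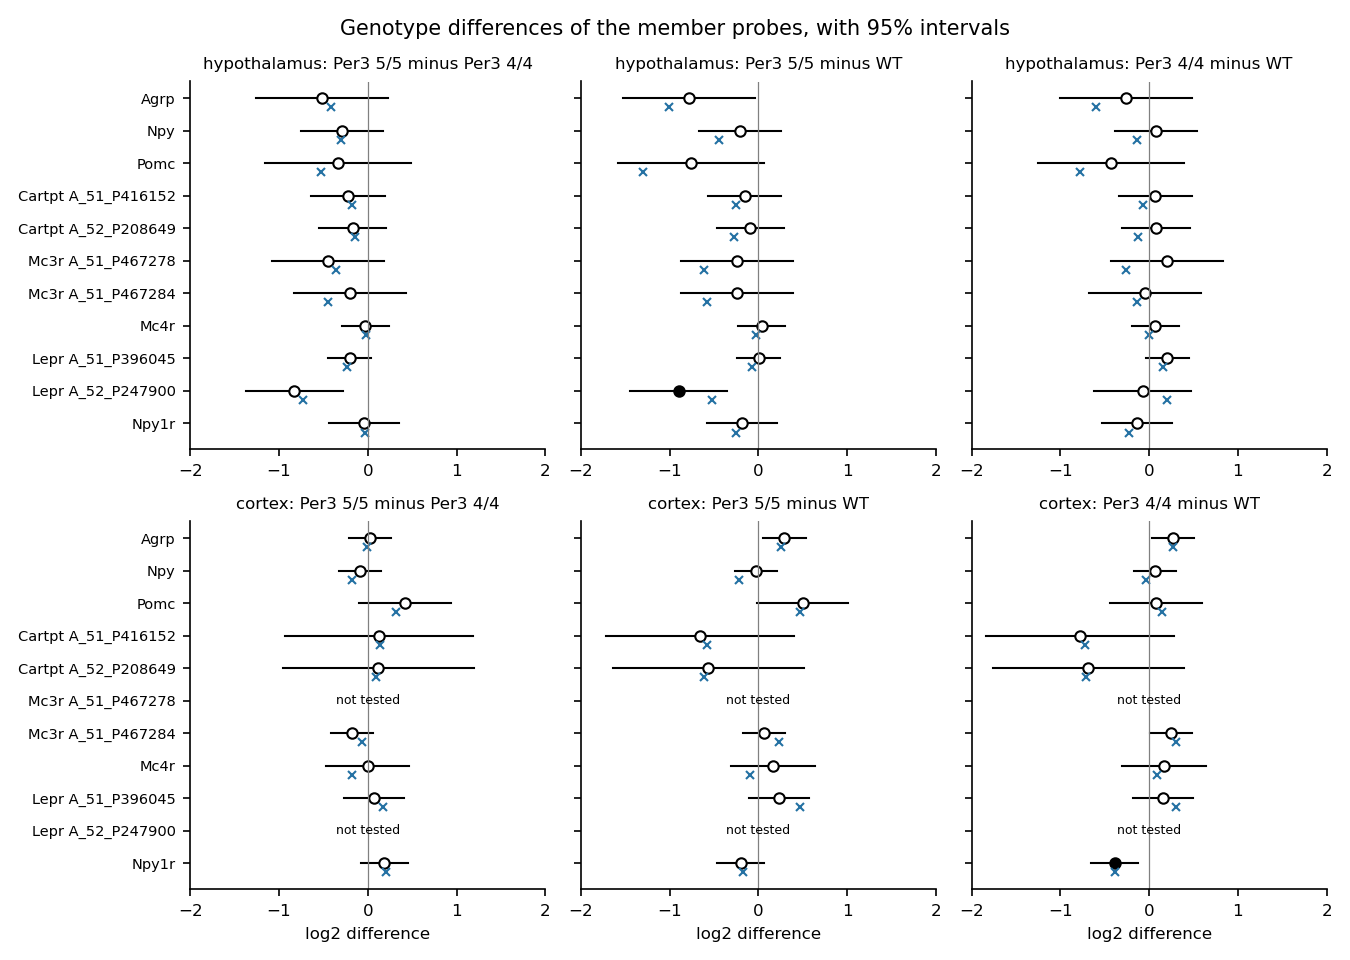
Differences between genotypes (log2, horizontal axis) for each member probe in each tissue, with points for the limma difference, lines for its 95% confidence interval, filled points for an adjusted p under 0.05 and blue crosses for the difference with scan day as a block. The filled points are Lepr A_52_P247900 in the hypothalamus (−0.90, Per3 5/5 against WT) and Npy1r in the cortex (−0.39, Per3 4/4 against WT), and the blocked value of Lepr lies closer to 0 at −0.53.

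Much of the spread of Pomc and Cartpt lay in single arrays that also stood apart in genes of neighboring tissue. In the hypothalamus of WT replicate 8, the highest in Pomc, 10 pituitary markers summed to 755.2, and 9 of the 10 were at their highest of 24 arrays, among them growth hormone (Gh, 8.09 against at most −0.32 on 22 other arrays) and prolactin (Prl, 7.89 against at most −0.29). Per3 5/5 replicate 8 was next with a sum of 44.8, Gh at 2.10, Prl at 4.70 and a Pomc level of 4.86, the highest of its group. The other 22 arrays had sums of 1.20 to 6.41, and the group medians were 2.55, 3.52 and 4.32 in Per3 5/5, Per3 4/4 and WT mice. Of the 10 pituitary markers 2 fell in Per3 5/5 against WT mice, Tshb (−3.07, adjusted p = 0.00814) and Pitx1 (−1.64, adjusted p = 0.0254), and 20.5% of all genes passed in that comparison. Pituitary corticotrophs and melanotrophs also make Pomc. In the cortex, Per3 5/5 replicate 5 had the highest pituitary sum, 6.44 against at most 0.763 on the other 23 arrays, and a Pomc level of 2.19 against −0.74 to 0.26. The part of these markers in the Pomc levels was not tested.

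**Figure D4:**
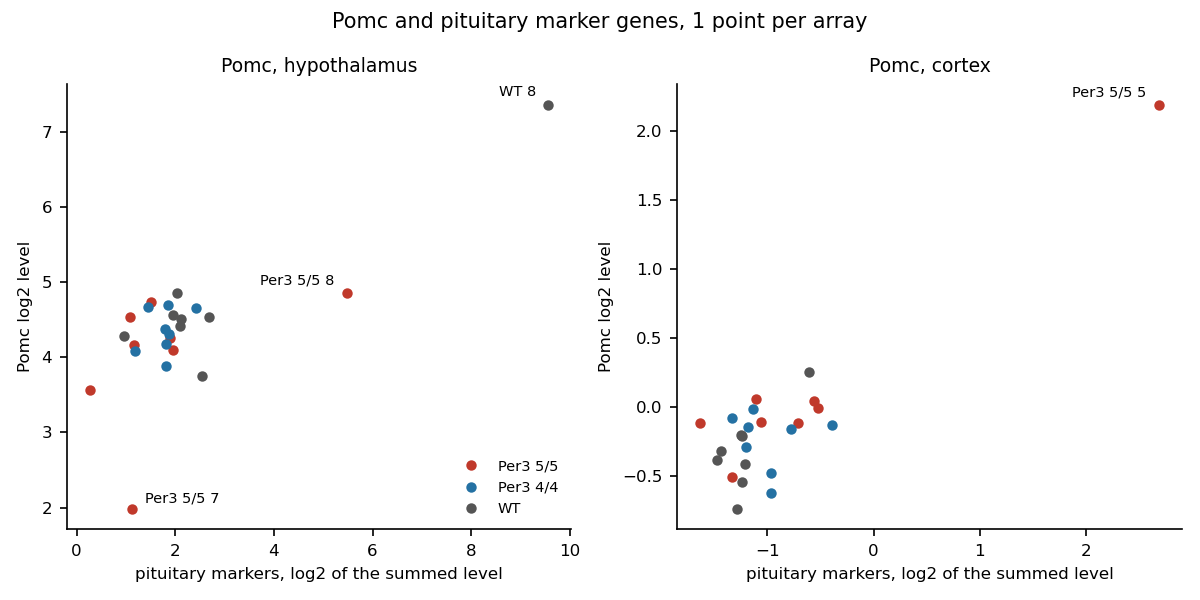
Pomc level (vertical axis, log2 relative to the array's 75th percentile) against the summed level of pituitary markers (horizontal axis, log2 of the sum) for the 24 arrays of each tissue, colored by genotype. WT replicate 8 in the hypothalamus (sum 755.2, Pomc 7.36) and Per3 5/5 replicate 5 in the cortex (sum 6.44, Pomc 2.19) lie apart from the rest.

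Cartpt in the cortex spanned −0.76 to 3.21 by probe A_51_P416152, the widest range of the 9 probes tested there. The highest 3 arrays were WT replicate 3 (3.21), WT replicate 7 (2.88) and Per3 5/5 replicate 4 (2.16), from 2 genotypes. In these the 6 striatum markers, of a region beneath the frontal cortex that also makes Cartpt, summed to 20.1, 10.8 and 11.4 against a median of 5.25 over 24 arrays. Group ranges were 4.61 to 11.4 in Per3 5/5, 4.88 to 13.1 in Per3 4/4 and 4.94 to 20.1 in WT mice. None of the 6 markers passed between genotypes in the cortex, where 11.6 and 23.2% of all genes passed for Per3 5/5 and Per3 4/4 against WT. The median differences of the 6 from WT were −0.38 and −0.47, with 2 of the 6 above 0 in each. The summed level of 3 choroid plexus markers was highest in the same 3 arrays (1.84, 0.838 and 0.690 against a median of 0.283), and cortex markers were lowest in WT replicates 3 and 7 (12.6 and 15.7, median 19.7). The relation was not one to one, as Per3 4/4 replicate 2 had a sum of 13.1 with a Cartpt level of 0.23. Cartpt differed from WT by −0.65 in Per3 5/5 mice (SE 0.51, adjusted p = 0.392) and by −0.78 in Per3 4/4 mice (SE 0.51, adjusted p = 0.284). Without the 4 cortex arrays that stood apart (these 3 and Per3 5/5 replicate 5, chosen after their values were seen) the differences were −0.23 and −0.00. The part of these markers in the Cartpt levels was not tested.

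Per3 5/5 replicate 7, the array low in Agrp, Npy and Pomc, also lay at the end of the range in some marker sums. The 10 arcuate markers tested summed to 9.01, the lowest of 24 hypothalamus arrays (median 14.6), and 8 of the 10 were below their median. Crabp1 was at −2.24 against −1.11 to 0.09 on the other arrays, and growth hormone-releasing hormone (Ghrh) at 1.53, with only WT replicate 3 lower (1.15). Ghsr, the ghrelin receptor, was instead at its highest of 24 arrays (−2.70), and Prlr (0.27) was above its median. The summed levels of cortex markers (1.79, the next array 1.55) and of choroid plexus markers (6.24, the next 5.77, median 4.13) were the highest of the hypothalamus arrays. In its own group it was also the lowest in Cartpt (3.02). WT replicate 3 had the second lowest arcuate sum, 9.17, also with 8 of the 10 markers below their median, yet its Agrp level was 1.16. It was low instead in Cartpt, Npy and Npy1r, and it had the highest sum of tanycyte and median eminence markers, 6.36. These marker levels were not tested as a cause of the members' levels.

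Correlations over the 24 hypothalamus arrays, after subtraction of each genotype's mean, describe which genes varied together. They share arrays, brightness and dissection, and they are given with no p. Agrp and Npy correlated at 0.89, and at 0.72 without Per3 5/5 replicate 7. Of the 15923 genes compared, Npy was the closest to Agrp, and other genes close to it included Crabp1 (0.84), Clcc1 (0.83) and Acot5 (0.82), at 0.63, 0.41 and 0.70 without that array. Agrp and Pomc, of opposed neurons, correlated at 0.45, and at −0.13 without that array. Pomc and the Cartpt probes, of the same neurons, correlated at only 0.46 and 0.48, and at 0.25 and 0.26 without that array. Agrp and the Cartpt probes, of opposed neurons, correlated at 0.56 and 0.62, and at 0.29 and 0.39 without it. Agrp with Npy thus went with a shared neuron population, whereas Pomc with Cartpt correlated less than Agrp with Cartpt. The Pomc values include WT replicate 8. Npy correlated with the Cartpt probes at 0.77 and 0.81, and Npy1r with them at 0.71 and 0.68. The genes closest to Pomc were Cd79b (0.90), Upk3a (0.89), Gnat2 (0.88), Mia (0.88) and Spint1 (0.87), and the closest to Cartpt included Esyt3 (0.90) and the thyrotropin receptor gene Tshr (0.92 with the second probe). Npy1r was closest to Hectd3 (0.91), Mc4r to Il1r2 (0.76) and Lepr A_51_P396045 to Col5a2 (0.82). The closest genes to the Mc3r probes were Borcs5 (0.96) and Gnmt (0.97), different for each probe. WT replicate 8 was far the highest in Pomc (7.36, the next array 4.86) and in Mc3r A_51_P467284 (1.03, the next −1.11), the probe close to Gnmt. Such a single array can carry a correlation, and the values without WT replicate 8 were not computed.

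**Figure D5:**
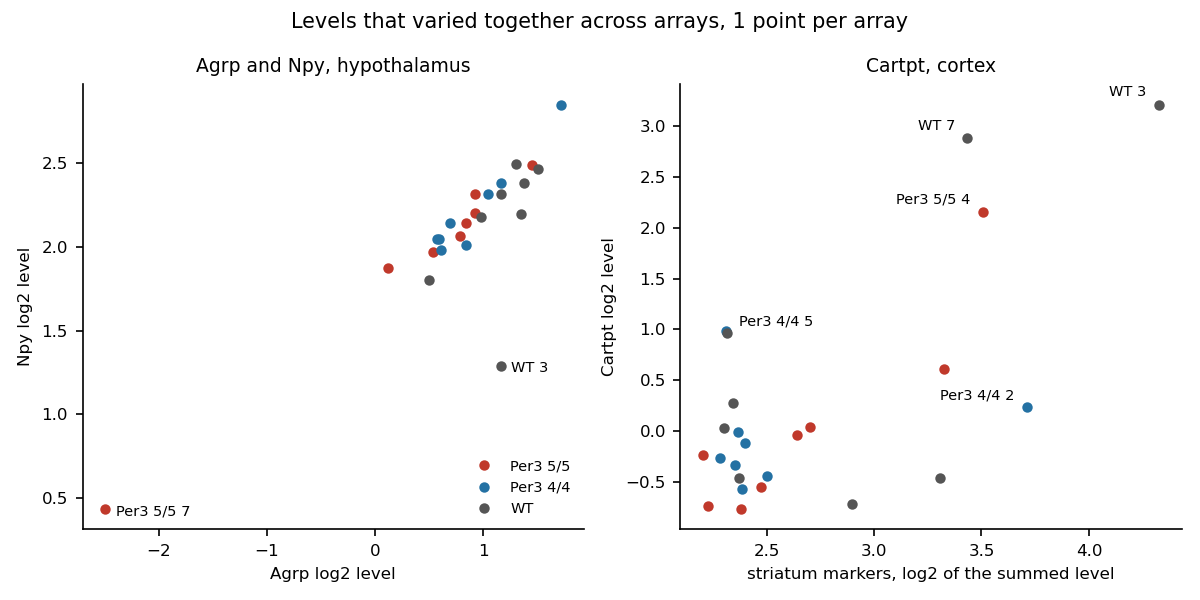
Left, Agrp against Npy level on the 24 hypothalamus arrays, and right, Cartpt level (A_51_P416152) against the summed level of striatum markers (log2 of the sum) on the 24 cortex arrays, with levels in log2 relative to the array's 75th percentile and colors for genotype. Per3 5/5 replicate 7 lies at the low end of both Agrp (−2.49) and Npy (0.44), and WT replicate 3 has the highest Cartpt level (3.21) and striatum sum (20.1).

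Other genes of the feeding pathway gave the surroundings. Of 36 genes listed, 32 were tested in the hypothalamus and 29 in the cortex. In the hypothalamus 2 rose and 5 fell in Per3 5/5 against WT mice (20.5% of all genes passed) and 2 rose and 3 fell in Per3 4/4 against WT mice (16.7%). Pnoc, the nociceptin precursor, rose by 0.38 and 0.42. Sdc3, a syndecan that binds agouti-related peptide, rose by 0.31 in Per3 5/5 mice, and Cpt1c rose by 0.37 in Per3 4/4 mice. Npy2r, another neuropeptide Y receptor and an autoreceptor on Agrp neurons, fell by 0.45 and 0.39, and Npy5r fell by 0.31 in Per3 5/5 mice. Insr, the insulin receptor, fell by 0.26 and 0.27. Sim1, a transcription factor of the paraventricular neurons that receive arcuate input, fell by 1.45 and 1.52, but by 0.26 and 0.35 with scan day as a block. In the cortex 1 rose and 1 fell in Per3 5/5 against WT mice (11.6%) and 2 rose and 1 fell in Per3 4/4 against WT mice (23.2%). Prcp, an enzyme that degrades a melanocortin peptide, rose by 0.24 and 0.27, Cpt1c rose by 0.32 in Per3 4/4 mice, Mgrn1 fell by 0.19 in Per3 5/5 mice and Npy2r fell by 0.75 in Per3 4/4 mice. None of the tested genes passed between the knock-in groups, and none passed in any comparison with scan day as a block. The median difference over the list was 0.07 and 0.01 in the hypothalamus against −0.02 and 0.02 over all genes. Of the 10 arcuate markers tested in the hypothalamus, 1 rose and 2 fell in each knock-in group against WT mice. Th, the dopamine-synthesis enzyme, rose by 0.55 in Per3 5/5 and 0.64 in Per3 4/4 mice, whereas the transcription factors Isl1 (−0.54 and −0.52) and Tbx3 (−0.40 and −0.44) fell, and none of these passed with scan day as a block.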

How the data were processed

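RNA from hypothalamus and frontal cortex blocks of 24 mice was hybridized to one-color Agilent whole-mouse 4x44K arrays and read with Agilent Feature Extraction (version 10.7.1.1, per the file headers). The deposited scanner files give, for each spot, intensity values (the authors' processed signal, from which Feature Extraction had removed background, the median spot signal and the median local background) and other flags of 0 or 1 for spots well above background, saturated or outlying. The authors also deposited a table of log2 values, which matched log2 of the processed signal scaled to each array's 75th percentile and centered on each probe's median within a tissue (correlation 0.9999), and it served as an alternative. The column medians of that table ran from −0.104 to 0.0916.

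From the scanner files, log2 of the processed signal minus log2 of the array's 75th percentile over 43379 non-control spots was taken, outlier spots (48 to 172 per array) were set missing, and spots of a probe were averaged. No spot was saturated. Of 41174 probes, 28486 carried a RefSeq accession and 27668 were named through the reference gene table. Only probes flagged as well above background by the scanner software on 6 or more of the 8 arrays of some genotype were tested, which kept 30735 probes in hypothalamus, 29715 in cortex and 31228 in both tissues. Genotypes were compared within each tissue by limma (version 3.58.1 in R 4.3.3; lmFit and eBayes on 24 arrays) with Benjamini-Hochberg adjustment over all probes tested, and every adjusted p in the text is from such a fit unless another test is named. Tissues and genotype by tissue were tested over 48 arrays. The 2 tissues of a mouse shared a number in the labels, and their deviations from group means correlated at 0.11 to 0.69 in all 24 mice, so a fit with the mouse as a block was run as well. Data were simulated from the probe means and within-genotype SDs of all 24 hypothalamus arrays, with independent normal noise (30622 probes, 200 changed in Per3 5/5). Against WT, 38% of probes changed by 0.5 log2 units and 86% of those changed by 1 unit were called. The simulation held no scan-day effect, no array that stood apart and no correlation between probes. It also changed far fewer probes than the 18.8% called in that comparison, so these rates do not give the power in the real arrays. The number of arrays limits the precision, and spot signals give no count from which a depth could be computed.

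The members and gene lists were chosen with earlier results of these data known. All member probes were named, together with list genes that passed (for more than 6, the 3 largest in each direction) and the 5 genes closest to a member by correlation, of which the text gives some, and 1 is not reported here. Mice were separate animals per the labels. Alternatives changed the scaling, background correction, dim-probe filter, test, scan day, slide, replicate number and arrays used. The methods' t-test among them is only part of the study's rule. That rule also held an ANOVA and, as a further or alternative route to a call, a rank product analysis, neither of which was run here.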

Additional observations from a re-analysis of the deposited data

Results flagged for a closer look

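Single arrays far from the other 7 of their genotype were found in 14 of 60 probe, tissue and genotype groups. A rate of about 1 in 20 holds for independent groups, whereas these share arrays and hold several probes of a gene. Per3 5/5 replicate 7 was also known beforehand to be low in Agrp and Pomc. The count is therefore a description and is not set against chance. In the hypothalamus, Per3 5/5 replicate 7 was the lowest of its group in Agrp (−2.49, the others 0.12 to 1.45), Npy (0.44, the others 1.87 to 2.49) and Pomc (1.98, the others 3.57 to 4.86). WT replicate 8 was the highest in Pomc (7.36, the others 3.76 to 4.86) and in Mc3r A_51_P467284 (1.03, the others −2.23 to −1.43). WT replicate 3 was the lowest in both Cartpt probes (2.87 and 3.50) and in Npy1r (−3.25). Per3 4/4 replicate 1 was the highest in Npy (2.85), and Per3 5/5 replicate 3 was the lowest in the dim Lepr probe A_52_P247900 (−8.62), where it was not well above background.

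In the cortex, Per3 5/5 replicate 5 was the highest in Pomc (2.19, the others −0.50 to 0.06) and Per3 5/5 replicate 4 in Cartpt A_51_P416152 (2.16). Per3 4/4 replicate 5 was the highest in Cartpt A_52_P208649 (1.36), with a striatum marker sum of 4.97, near the median of 5.25. Per3 5/5 replicate 8 was the lowest in Npy (3.06). The marker levels that move with these arrays stand beside the results, and their part was not tested.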

How the results depend on the processing

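The call of Lepr A_52_P247900 in the hypothalamus (Per3 5/5 against WT, 1 probe called) went to 0 with the normexp background, with scan day as a block, on 1 scan day alone, with slide as a fixed block, under the methods' t-test (smallest adjusted p = 0.0673) and without the 3 arrays that stood apart (0.0533). Under normexp its difference reversed in sign, to 0.01 (0.00890). Leaving out 1 array at a time kept the count at 1. In the cortex, Per3 4/4 against WT had 1 call. It went to 0 with scan day as a block, on 1 scan day alone, with slide as a fixed block and without the 4 arrays that stood apart, to 2 under the methods' t-test (Npy1r and Agrp) and to 3 with normexp (Lepr A_51_P396045, Mc3r A_51_P467284 and Agrp, all higher in Per3 4/4, without Npy1r). Leaving out 1 array gave 0 to 1. Per3 5/5 against WT in the cortex had 0 calls, 2 with normexp (Lepr A_51_P396045 at 0.42 and Agrp at 0.45) and 0 to 1 without 1 array (Agrp, 0.34 without Per3 5/5 replicate 8, adjusted p = 0.0403). The tissue count of 9 was 8 to 9 without both arrays of 1 mouse. The causes were not tested.

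The replicate number as a block left the 6 genotype counts at 0, 1 and 0 in hypothalamus and 0, 0 and 1 in cortex. Same-numbered arrays of different genotypes correlated at −0.42 to 0.52 and at most 3 of 8 pairs matched their own number best, so across genotypes the number is only a name. With the mouse as a block the tissue count was 10, Mc4r being added, and no genotype by tissue call changed. Over 104 probe comparisons and 3436 alternative values, the sign turned with a call in 1 and with no call in 171. The normexp background moved the median of all probes by 0.21 (cortex) and 0.14 (hypothalamus) for Per3 4/4 against WT and by −0.11 for Per3 5/5 against Per3 4/4 in cortex, and median centring moved it by −0.11 for Per3 5/5 against WT in cortex. Dim probes limit the reading: Lepr A_52_P247900 in both tissues and Mc3r A_51_P467278 in the cortex were near background on many arrays.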
